A study of Mus musculus with 2 samples.

Results

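Genes that mark macrophages and dendritic cells were compared between the small intestine of mice with an epithelial deletion of Spib and that of mice labelled WT. The 31 genes were chosen by symbol from knowledge of these cells, and all 31 were found among the 27275 genes of the table. They were divided by role into 14 macrophage genes, 8 dendritic cell genes and 9 genes that both cells share. The WT library came from mice of the genotype Spib+Villin-Cre and the KO library from mice of the genotype Spibfl/flVillin-Cre, all naive, so both carry the Villin-Cre transgene and differ in the floxed Spib alleles. Villin drives Cre in intestinal epithelial cells, and the cells that the genes mark come from bone marrow or embryonic precursors, not from that epithelium. Proximal small intestine was taken, and nothing used here gives the age, sex or number of the mice. There was 1 library per genotype, so no value has a replicate, no test of genotype was made and every difference is between these libraries.

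Macrophages of the gut wall take up dying cells and bacteria, and most are replaced from blood monocytes under the control of the growth factor receptor CSF1R. Conventional dendritic cells arise from precursors that need the receptor FLT3, carry antigen to lymph nodes, and fall into a BATF3- and IRF8-dependent branch that bears XCR1 and CLEC9A and another that bears SIRPA and, in part, CD209A. PU.1, the product of Spi1, is an ETS factor of all myeloid cells, and it is a close relative of the factor that Spib encodes. Plasmacytoid dendritic cells and B cells express Spib themselves.

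The values are FPKM (fragments per kilobase of transcript, scaled to library size), which can be compared between genes since they are per length. Reads were recovered from the FPKM and the exon length, with FPKM denominators of 17425640 reads for the WT library and 17658566 for the KO library. These denominators were fitted to the values and are not reported totals. The recovered reads of all genes summed to more, 18337504 and 18553356, and the reason was not tested. Spib had 4.94 FPKM (247 reads) in the WT library and 0.592 FPKM (30 reads) in the KO library, 8.34-fold lower. Mitochondrially encoded genes took 7.65% of the summed FPKM in the WT library and 10.01% in the KO library. Epithelial genes (Epcam, Vil1, Krt8, Krt20, Cdh1 and Cdx2) summed to 5526 and 5602 FPKM, and the pan-leukocyte genes, such as Ptprc and Coro1a, summed to 103 and 61.5 FPKM, so epithelial RNA prevailed in both. In whole tissue, fewer cells of a type and less RNA per cell cannot be told apart.

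For 2 members the sequence bears on what their values can mean. Lyz2, the lysozyme of macrophages and neutrophils, lies beside Lyz1, the lysozyme of Paneth cells, on chromosome 10. Their coding sequences, read from GENCODE M21 transcripts of build GRCm38, have 444 bases each without the stop codon and differ at 22. The stretch of 90 coding bases with most differences, coding bases 43 to 132, is shown 5′ to 3′ with the 13 differing bases in capitals.
Lyz1: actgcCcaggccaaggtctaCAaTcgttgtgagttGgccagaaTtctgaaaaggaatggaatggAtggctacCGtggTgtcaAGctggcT
Lyz2: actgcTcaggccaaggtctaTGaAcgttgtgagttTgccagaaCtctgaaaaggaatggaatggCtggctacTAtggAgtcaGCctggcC
Of the windows of 50 bases along the Lyz2 transcript, 15.4% also occur letter for letter in the Lyz1 transcript, and of those of 100 bases 1.97%. Lyz1 had 5754 FPKM (126638 reads) in the WT library and 4250.3 FPKM (94793 reads) in the KO library. A share of 1% of the Lyz1 reads would be 1266 reads in the WT library and 948 in the KO library, beside 2108 and 1404 reads counted for Lyz2. No source used here gives how the authors' mapping divided reads between the copies, and the Lyz2 values are uncertain for that reason. The other member is Itgam, which has a second row under the same symbol in the table. That row is a read-through model (ENSMUSG00000108596, Gm49368 in GENCODE M21) that covers 68.7% of the exon bases of Itgam, and it had 3 reads in the WT library and 0 in the KO library. The row of Itgam itself (ENSMUSG00000030786) was used, and reads that fall in both models may have been left out of it.

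Levels of the members spanned a wide range, from 138 FPKM for Ctss in the WT library to 0.219 FPKM for Xcr1. In the WT library 10 members had 10 FPKM or more, and 4 members, Siglec1, Xcr1, Flt3 and Zbtb46, were below 1 FPKM in both libraries. Macrophage genes summed to 266 FPKM in the WT library and 199 in the KO library, dendritic cell genes to 30.5 and 21.7, and shared genes to 186 and 159. The defining genes of macrophages (Csf1r, Adgre1 and the C1q chains) were thus well above the floor, while those of the XCR1-bearing dendritic cells rested on few reads.

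**Figure D1:**
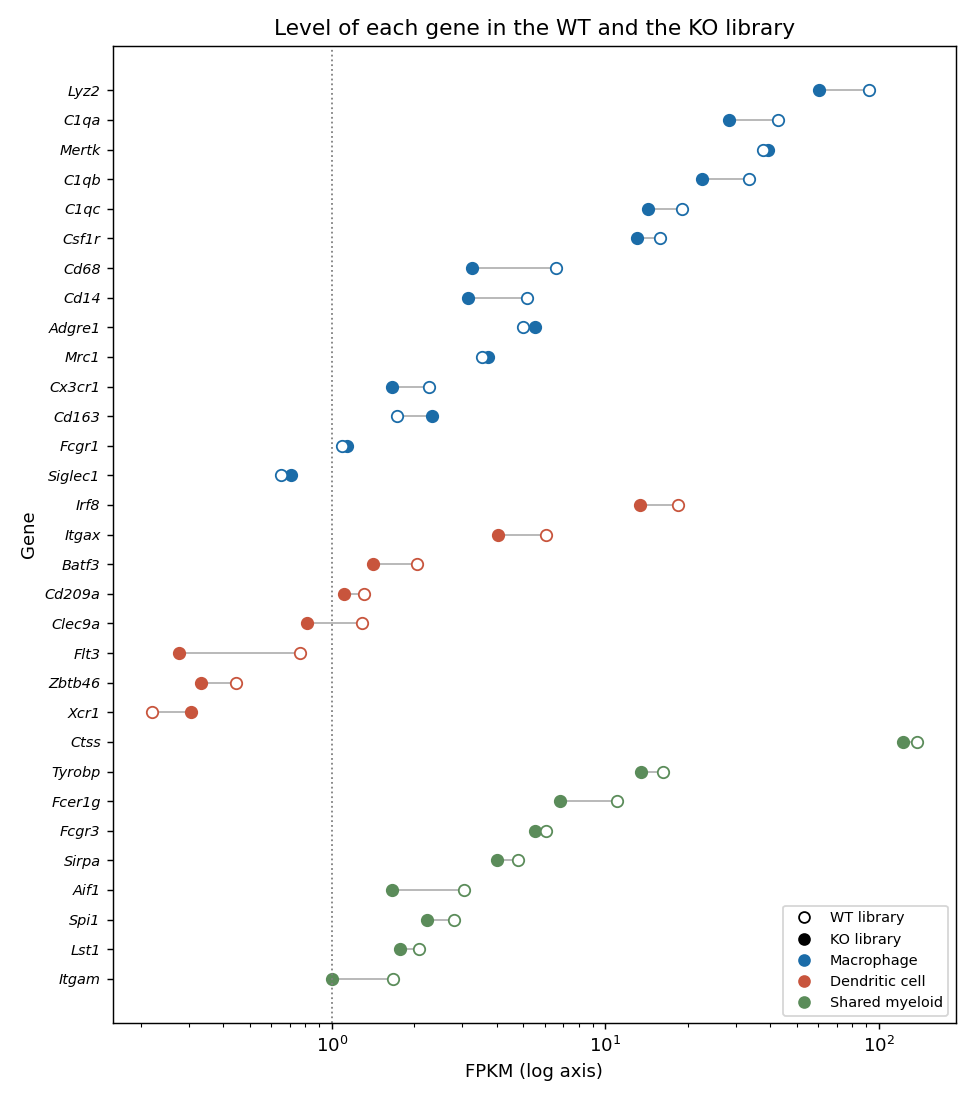
Level of each of the 31 genes in FPKM (horizontal log axis), with an open circle for the WT library and a filled circle for the KO library; colours give macrophage, dendritic cell and shared genes, and the dotted line is at 1 FPKM. The filled circle lies to the left of the open circle for 24 genes and to the right for 7.

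Most members were somewhat lower in the KO library. The plain FPKM ratio was below 1 for 24 of the 31 genes and above 1 for 7, of which 6 are macrophage genes and the other is Xcr1. Of the 25421 genes above 0 in either library, 58.0% had a ratio below 1. The summed FPKM of all 31 was 483 in the WT library and 379.9 in the KO library, 1.27-fold lower. Ctss and Lyz2 lead this sum, with 138 and 91.9 FPKM in the WT library. On the log2((KO FPKM + 1) / (WT FPKM + 1)) scale, used for all log2 ratios, all medians and, unless a plain ratio is named, all counts of genes past a fold, none of the 27 members of at least 1 FPKM in either library was 2-fold lower (2.51% of all 13479 such genes were) and none was 2-fold higher (1.61%). At least 1.5-fold lower were 4 of the 27, Cd68, Fcer1g, Aif1 and Lyz2, where 5.69% of all such genes were, or 4.88% of those with a mean of 1 to 50 FPKM. At least 1.5-fold higher were 0 of 27, where 3.56% of all such genes were. The log2 ratio was below 0 for 22 of the 27, against 58.7% of all compared genes. Their median log2 ratio was -0.30, with values from -0.84 to 0.28, where the median of all compared genes was -0.05. Clec9a was compared through the WT library alone, in which it was the higher, so counts over the 27 are descriptions. The added 1 FPKM makes differences of low genes smaller, and the folds given for single genes are plain FPKM ratios without it. By the plain ratio 8 of the 27 were at least 1.5-fold lower (Cd68, Lyz2, C1qa, Cd14, Clec9a, Itgam, Fcer1g and Aif1), where 9.41% of all compared genes were, and 1, Cd68, was at least 2-fold lower, where 4.83% were. None of the 27 was at least 1.5-fold higher by the plain ratio, where 5.60% were.

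Counting error alone was narrower than many of these differences. The exact 95% interval of the ratio, which treats each read as an independent molecule and leaves out the variation between mice, lay wholly below 1 for 16 of the 27 compared members and wholly above 1 for 1. Over all compared genes these shares were 28.9% and 17.6%. Intervals narrow with depth, and 23 of the 31 members had at least 50 reads in each library.

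**Figure D2:**
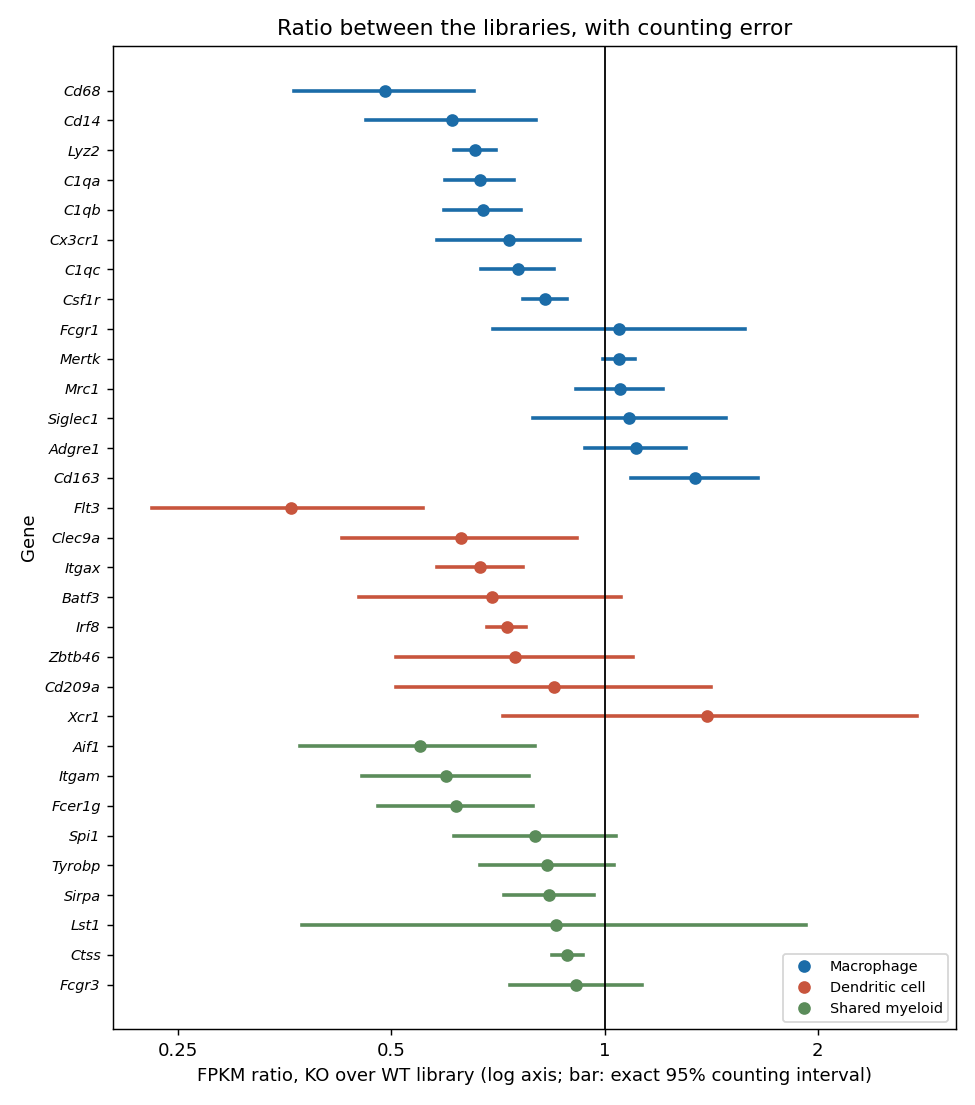
Ratio of the FPKM in the KO library to that in the WT library for each of the 31 genes (horizontal log axis), with the exact 95% counting interval as a bar; colours give macrophage, dendritic cell and shared genes. The intervals of 8 macrophage genes lie below 1 and that of Cd163 lies above it, and Flt3 has the lowest ratio, 0.361. Of all compared genes, 28.9% have an interval wholly below 1 and 17.6% wholly above it.

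The macrophage genes fell on both sides of equality. Lower in the KO library were 8 of the 14: the lysosomal glycoprotein Cd68, the complement chains C1qa, C1qb and C1qc, lysozyme Lyz2, the endotoxin co-receptor Cd14, the fractalkine receptor Cx3cr1 and Csf1r. The other 6, Adgre1, Mrc1, Cd163, Siglec1, Mertk and Fcgr1, had ratios above 1. Over all genes above 0 in either library, 58.0% had a ratio below 1, near the share among the macrophage genes. The division of the macrophage genes was seen in the data and is a description. The median log2 ratio of the 13 compared macrophage genes was -0.30, and their SD of 0.35 was wider than that of the shared genes, 0.19.

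Cd68 (chr11:69664213-69666153), a protein of late endosomes and lysosomes of phagocytes, had 6.62 FPKM (145 reads) in the WT library and 3.24 FPKM (72 reads) in the KO library. It was 2.04-fold lower (counting interval 1.53 to 2.75). This was the lowest log2 ratio of the compared members, -0.84.

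The chains of C1q, which binds antibody complexes and dying cells and starts the classical complement cascade, are encoded side by side on chromosome 4 (chr4:136880129-136898803). C1qa had 42.6 FPKM in the WT library and 28.4 in the KO library, 1.502-fold lower (1.34 to 1.68). C1qb had 33.5 and 22.5 FPKM, 1.49-fold lower (1.31 to 1.68). C1qc had 19.0 and 14.3 FPKM, 1.33-fold lower (1.18 to 1.495). The intervals of the 3 chains overlap, and each lies away from equality. Within a library the chains kept similar proportions, with a C1qa to C1qc FPKM ratio of 2.24 in the WT library and 1.98 in the KO library. The other genes of the cascade differed among themselves. Of 10 compared complement genes none was 1.5-fold apart by the log2 ratio with the added 1 FPKM, and 2, Cfp and C5ar1, were at least 1.5-fold lower by the plain ratio. Properdin Cfp, a stabiliser of the alternative pathway made by leukocytes, had 6.02 and 3.69 FPKM, and C5ar1, the receptor of the fragment C5a, had 1.65 and 1.08. The serine protease C1s1 had 12.5 and 10.5 FPKM and the central component C3 had 26.2 and 32.3.

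Lyz2 had 91.9 and 60.4 FPKM, 1.52-fold lower (1.42 to 1.63), beside a 1.35-fold lower Lyz1 (1.34 to 1.37). Cd14, which hands endotoxin to Toll-like receptor 4, had 5.15 FPKM (141 reads) and 3.13 FPKM (87 reads), 1.64-fold lower (1.25 to 2.17). Cx3cr1, by which gut macrophages sense fractalkine from epithelium, had 2.27 FPKM (178 reads) and 1.66 FPKM (132 reads), 1.37-fold lower (1.08 to 1.72). The gene of its ligand, Cx3cl1, was nearly level at 25.7 and 23.4 FPKM. Csf1r, the receptor that macrophages need to survive, had 15.8 and 13.03 FPKM, 1.22-fold lower (1.13 to 1.31), and 15.1% of its exon bases are shared with the antisense-strand gene Hmgxb3. Csf1r was thus less far apart than Cd68, and the FPKM ratio of Cd68 to Csf1r was 0.418 in the WT library and 0.249 in the KO library.

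The 6 macrophage genes above 1 were close to equal, apart from Cd163. Adgre1, which encodes the macrophage antigen F4/80, had 4.99 FPKM (282 reads) and 5.51 FPKM (316 reads), a ratio of 1.11 (0.939 to 1.303). The mannose receptor Mrc1 had 3.53 FPKM (392 reads) and 3.71 FPKM (417 reads), a ratio of 1.05 (0.912 to 1.21). Siglec1, a sialic acid receptor, had 0.651 FPKM (81 reads) and 0.706 FPKM (89 reads). The high-affinity IgG receptor Fcgr1 had 1.09 FPKM (49 reads) and 1.14 FPKM (52 reads). The haemoglobin scavenger receptor Cd163 had 1.73 FPKM (165 reads) in the WT library and 2.32 FPKM (224 reads) in the KO library, a ratio of 1.34 (1.09 to 1.65). Mertk, a receptor for dying cells, had 37.5 and 39.4 FPKM, a ratio of 1.05 (0.996 to 1.104). Its level was 2.37 times that of Csf1r in the WT library and 3.02 times in the KO library, and Mertk is not restricted to macrophages. Relative to Csf1r, Adgre1 and Mrc1 took a larger share in the KO library, with FPKM ratios of 0.315 and 0.423 for Adgre1 and of 0.223 and 0.284 for Mrc1.

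Dendritic cell genes were lower in the KO library for 7 of 8, at low levels. The share was 58.0% over all genes above 0 in either library. The median log2 ratio of the 5 compared was -0.34, and over all 8 without the filter on low values it was also -0.34. Counting intervals lay wholly below 1 for 4 of the 8, Flt3, Clec9a, Itgax and Irf8, as they did for 28.9% of all compared genes. At most 82 reads supported each of the other genes of the list in either library, Itgax and Irf8 apart.

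Flt3 (chr5:147330741-147400489), the receptor on which dendritic cell precursors depend, had 0.762 FPKM (82 reads) in the WT library and 0.275 FPKM (30 reads) in the KO library. It was 2.77-fold lower (counting interval 1.80 to 4.36) and had the lowest plain ratio of the 31. The gene of its ligand, Flt3l, which many cells make, had 1.49 FPKM (101 reads) and 0.584 FPKM (40 reads), 2.56-fold lower (1.76 to 3.79). With the pseudocount of 1, the log2 ratio of Flt3 was -0.47, which understates the difference at these levels.

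Among genes of the cross-presenting branch the values did not go one way. Clec9a, a receptor for the exposed actin of dead cells, had 1.29 FPKM (74 reads) and 0.808 FPKM (47 reads), 1.60-fold lower (1.09 to 2.35), and 5.59% of its exon bases are shared with Clec1b. Xcr1, the chemokine receptor of the same cells, had 0.219 FPKM (17 reads) and 0.305 FPKM (24 reads), a ratio of 1.39 whose interval of 0.718 to 2.76 includes 1. Batf3, the transcription factor of this branch, had 2.05 FPKM (57 reads) and 1.42 FPKM (40 reads), a ratio of 0.692 (0.450 to 1.056). A difference in Xcr1 or Batf3 was not detectable at this depth. Irf8, which dendritic cells, monocytes and B cells all express, had 18.4 and 13.4 FPKM, 1.37-fold lower (1.29 to 1.46). Zbtb46, a factor of conventional dendritic cells and endothelium, had 66 and 50 reads, and the lectin Cd209a of the other branch had 36 and 31. Both intervals include 1. Itgax (chr7:128129547-128150657), the integrin chain CD11c, which gut macrophages and activated intraepithelial lymphocytes also bear, had 6.06 FPKM (507 reads) and 4.04 FPKM (343 reads), 1.498-fold lower (1.30 to 1.72).

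All 9 shared genes had a ratio below 1 (58.0% of all genes above 0 did), with a median log2 ratio of -0.23. The adaptors of activating receptors differed in size. Fcer1g, the common gamma chain of Fc receptors, had 11.0 FPKM (168 reads) and 6.80 FPKM (105 reads), 1.62-fold lower (1.26 to 2.09). Tyrobp, the adaptor DAP12, had 16.3 FPKM (189 reads) and 13.5 FPKM (159 reads), a ratio of 0.830 (0.668 to 1.031). The Tyrobp to Fcer1g ratio was 1.47 in the WT library and 1.98 in the KO library. Aif1, an actin-binding protein also known as IBA1, had 3.03 FPKM (81 reads) and 1.66 FPKM (45 reads), 1.82-fold lower (1.25 to 2.69). Itgam, the integrin chain CD11b, had 1.68 FPKM (147 reads) and 1.003 FPKM (89 reads), 1.67-fold lower (1.28 to 2.203). Spi1 had 2.79 FPKM (131 reads) and 2.23 FPKM (106 reads), a ratio of 0.798 (0.612 to 1.039). Sirpa, the receptor for the CD47 signal of intact cells, had 4.79 and 4.001 FPKM, 1.20-fold lower (1.04 to 1.39). The protease Ctss, which cuts the invariant chain of MHC class II, had the highest level of all members, 138 and 122 FPKM, and was 1.13-fold lower (1.07 to 1.19). The low-affinity IgG receptor Fcgr3 had 6.05 and 5.51 FPKM, and Lst1 had 15 and 13 reads. The intervals of Tyrobp, Spi1, Fcgr3 and Lst1 include 1.

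The contrast of dendritic cell with macrophage genes was small. The medians of the compared genes differed by -0.04 (dendritic minus macrophage, log2), and the difference turned to 0.07 with a pseudocount of 5 and to 0.09 with a minimum of 5 FPKM, which 2 dendritic cell genes reached. By summed FPKM the dendritic cell genes were 1.41-fold lower and the macrophage genes 1.34-fold lower. A few genes lead these sums. In the WT library Irf8 and Itgax, which other cells also express, had 18.4 and 6.06 of the 30.5 FPKM of dendritic cell genes. Of the 266 FPKM of macrophage genes, Lyz2 had 91.9, C1qa 42.6 and Mertk 37.5. The Lyz2 values are uncertain, and Mertk is not restricted to macrophages. Among compared genes, log2 ratios of the dendritic cell genes, from -0.48 to -0.13, lay within those of the macrophage genes, from -0.84 to 0.28. By the plain ratio over all members, the dendritic cell genes reached further on each side. They ran from 0.361 (Flt3) to 1.39 (Xcr1), and the macrophage genes from 0.490 (Cd68) to 1.34 (Cd163). Flt3 and Xcr1 were below 1 FPKM in both libraries, and the interval of Xcr1 includes 1. The lists differed in how many genes lay above 1, 6 of 14 macrophage genes and 1 of 8 dendritic cell genes. Of all genes above 0 in either library, 58.0% lay below 1. With 1 library per genotype the difference between the lists was not tested.

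**Figure D3:**
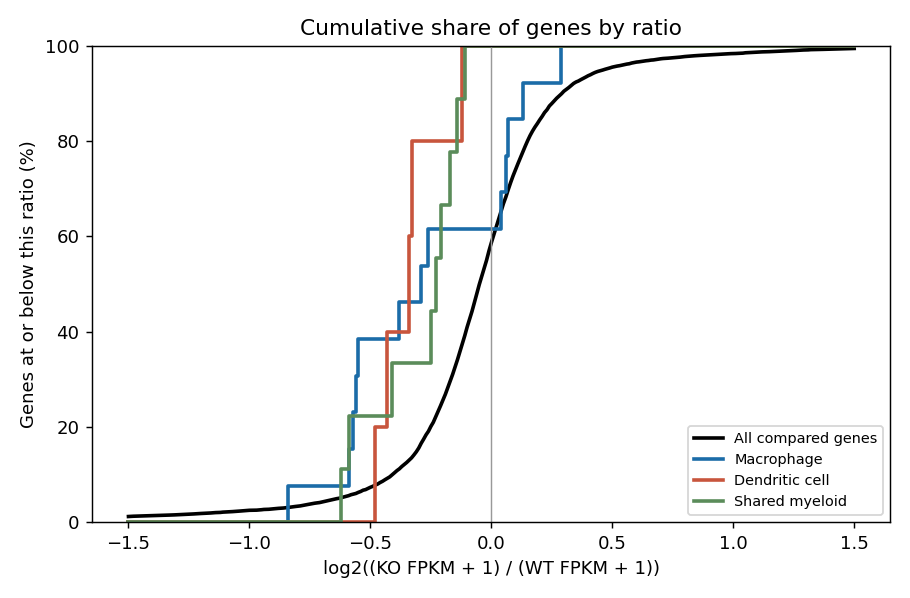
Cumulative share of genes (vertical axis, %) at or below each log2 ratio (horizontal axis) for all 13479 compared genes in black and for the 13 macrophage, 5 dendritic cell and 9 shared genes compared. The coloured lines run to the left of the black one over most of the range, and the macrophage line meets it near 0.

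Further genes of these cells were described from lists kept beside the members. Of 11 compared macrophage genes outside the members, 1 was at least 1.5-fold lower, none was higher and 10 lay between, with a median of -0.21 (2 lower by the plain ratio, with Timd4 as the other). The lower gene was Lgmn, a lysosomal protease also made by other cells, at 50.6 and 27.4 FPKM, 1.84-fold lower (1.71 to 1.98). Maf, a transcription factor of macrophages and other cells, had 41.96 and 38.0 FPKM. Lyve1, shared by tissue macrophages and lymphatic endothelium, had 7.67 and 9.37 FPKM. Of 8 other genes of conventional dendritic cells, 2 were at least 1.5-fold lower, 1 was higher and 5 lay between (3 lower by the plain ratio, with Itgae as the other). Irf4, a factor of the SIRPA-bearing branch and of plasma cells, had 2.47 FPKM (211 reads) and 0.924 FPKM (80 reads), 2.67-fold lower (2.06 to 3.50). Btla, an inhibitory receptor of lymphocytes and dendritic cells, was 1.93-fold lower (1.49 to 2.51). The higher gene was Naaa, an amidase of lysosomes, at 12.2 and 21.2 FPKM.

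Genes of dendritic cells that mature and migrate had a median of -0.45 over 7, with 1 at least 1.5-fold lower and 6 between, or 3 lower by the plain ratio (Ccr7, Fscn1 and Cd83). Of the 7, 2 were compared through the WT library alone. The lower gene was the receptor Ccr7, which naive lymphocytes also carry. The actin-bundling gene Fscn1 had 3.11 and 1.88 FPKM, Cd83 had 5.64 and 3.63, and the NF-kB subunit Relb had 16.6 and 13.7. In the list of plasmacytoid dendritic cells 1 of 5 compared genes was at least 1.5-fold lower, or 2 by the plain ratio, with Ccr9 at 188 and 99 reads, 1.92-fold lower. The first was Ly6d, found also on B cells and epithelium, at 9.26 and 3.50 FPKM, while the defining lectin Siglech had 37 and 24 reads and a counting interval that includes 1. The most abundant gene of that list, Bst2, which interferon induces in many cells, had 19.5 and 16.6 FPKM. Monocyte genes differed widely in level, with Ly6c2 at 1.63 and 1.24 FPKM and Ccr2 at 0.688 and 0.545. In that list 1 of 5 compared genes, Cebpb at 3.01 and 1.47 FPKM, was at least 1.5-fold lower, or 2 by the plain ratio with Nr4a1. The most abundant, Plac8, had 575 and 614 FPKM. That is above the 103 and 61.5 FPKM to which the pan-leukocyte genes summed, so Plac8 was not read as a measure of monocytes. Neutrophils also express Lyz2, Itgam and Fcer1g, and 10 of their genes were read beside these. They summed to 11.8 FPKM in the WT library and 13.5 in the KO library, with 2 listed at 0 in the WT library and 5 in the KO library. The granule proteins S100a8 and S100a9 had 3 and 4 reads in the WT library and 0 each in the KO library, and the receptor Csf3r had 59 and 34 reads. Only 2 reached 1 FPKM, both higher in the KO library. Mmp9, a protease that other cells also make, had 6.94 and 7.78 FPKM, and Retnlg had 2.64 FPKM (28 reads) and 4.94 FPKM (53 reads), a ratio of 1.87 (1.16 to 3.07). The part of neutrophils in the ratios of the members was not tested.

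Of 19 growth factors, chemokines and receptors that maintain or guide these cells, 18 had a plain ratio below 1, where 58.0% of all genes above 0 did. The counting interval of 10 of the 19 lay wholly below 1, as it did for 28.9% of all compared genes. Fewer than 10 reads in each library supported 5 of the 19. Of 14 compared, 4 were at least 1.5-fold lower (5 by the plain ratio, with Tgfb1), none was higher and 10 lay between, with a median of -0.24. The 4 were Flt3l, Ltb, the receptor chain Csf2ra and Il10ra. Csf2ra, which binds the factor GM-CSF, had 10.8 and 6.74 FPKM, 1.60-fold lower (1.39 to 1.85). Il10ra, through which interleukin-10 restrains gut macrophages, had 2.85 and 1.52 FPKM, 1.88-fold lower (1.45 to 2.44). Csf1, the ligand of CSF1R, had 3.23 FPKM (297 reads) and 2.23 FPKM (208 reads), 1.45-fold lower (1.21 to 1.74), and Il34, its other ligand, had 105 and 85 reads. The most abundant gene of the list, the lymphotoxin receptor Ltbr, had 39.3 and 34.7 FPKM. In the list for DAP12 and Fc receptor signalling, which also holds receptors such as Fcgr2b and Clec7a, 1 of the 10 compared genes reported was at least 1.5-fold lower. That was Btk, a kinase of B and myeloid cells, at 1.93 and 0.935 FPKM, while the kinase Lyn, the most abundant of the list, had 12.6 and 10.4.

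Lymphocyte genes lay further below equality than the myeloid members by summed level. B cell genes summed to 32.4 FPKM in the WT library and 12.6 in the KO library, 2.58-fold lower, and T cell genes to 22.4 and 10.96 FPKM, 2.04-fold lower, beside the 1.27-fold of the members. None of the markers of either list was at 0. The median log2 ratio was -0.82 over 10 B cell genes, with 8 at least 1.5-fold lower, among them the antigen receptor chains Cd79a and Cd79b. It was -0.63 over 9 compared T cell genes, with 6 at least 1.5-fold lower, among them Cd3d and Cd8a. Of these, 6 of the 10 and 5 of the 9 were compared through the WT library alone, so the counts and medians are descriptions. Over the 4 genes of each list with at least 1 FPKM in both libraries the medians were -1.05 and -0.61, beside -0.28 over 26 members. Pan-leukocyte genes had a median of -0.60, with 7 of 12 at least 1.5-fold lower, such as Laptm5 and Cd52, and their median plain ratio was 0.586. Of the 31 members, 28 had a plain ratio above that value, and Flt3, Cd68 and Aif1 lay below it. Most genes of any kind also lay above it, as 9.41% of all compared genes were at least 1.5-fold lower by the plain ratio. The count therefore does not set the members apart from all genes. Several members and neighbours named above, Irf8, Irf4, Itgax, Itgae, Ccr7, Ccr9, Btla, Btk and Ltb, are also expressed by B or T cells. The part of lymphocytes in their ratios was not tested. Fibroblast and endothelial genes, such as Col3a1, had a median of 0.04, and epithelial genes a median of -0.02, with no gene of either 1.5-fold apart. Of 5 compared genes of mast cells and eosinophils, 4 (Mcpt1, Mcpt2, Kit and Siglecf) were at least 1.5-fold higher. So were 3 of 6 Paneth cell genes (Ang4, Itln1 and Defa24), where 3.56% of all compared genes were. The remaining mast cell and eosinophil gene, Prg2, was lower, with 1.10 FPKM (16 reads) and 0.473 FPKM (7 reads). Among the Paneth cell genes Lyz1 was lower.

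**Figure D4:**
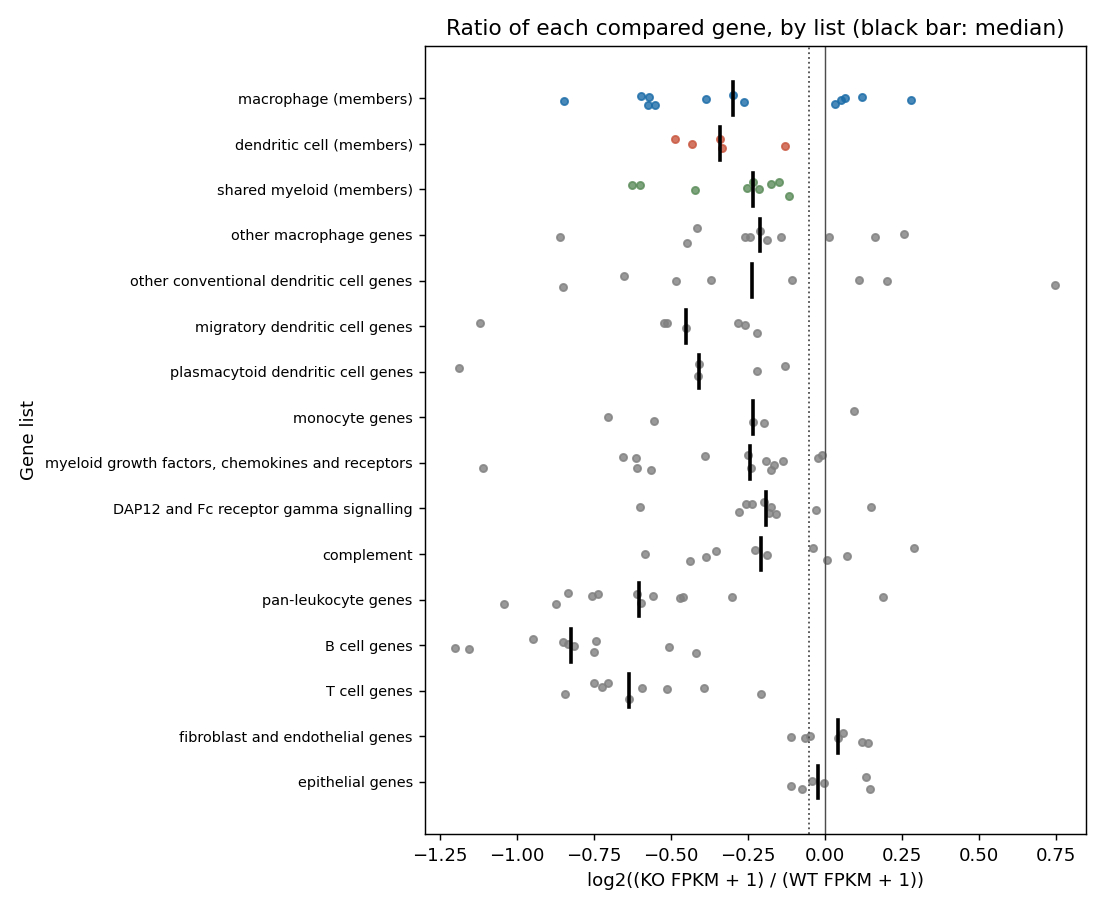
Log2 ratio of each compared gene (points; horizontal axis) for the 3 groups of members in colour and for the other lists in grey, with the median as a black bar; the solid line is at 0 and the dotted line at the median of all compared genes, -0.05. The medians of the 3 member groups, -0.30, -0.34 and -0.23, lie between that line and the medians of B cell (-0.82) and T cell genes (-0.63).

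Promoters of the members were read for the purine-rich letters that ETS factors such as PU.1 and Spi-B bind, as PU.1 is known to act on many myeloid genes. RefSeq promoters of build GRCm38.p6, from 250 bases before to 50 after a start, matched 22 of the 31 genes with 24 promoters. The letters GAGGAA, searched on both strands, were in 11 of the 24, or 45.8%, and in 28.3% of all 32851 promoters. By role, they were in 5 of 9 promoters of macrophage genes, in 5 of 6 of shared genes and in 1 of 9 of dendritic cell genes. Among those of the shared genes are 2 overlapping promoters of Fcgr3, both with a match, so these are not separate stretches. The composite of ETS and interferon regulatory factor letters, GGAA followed after any 2 bases by GAAA, was in 2 of the 24, those of Cd68 and Cd209a, and in 2.72% of all promoters. The interferon-type letters, GAAA followed after any 2 bases by GAAA, which can overlap the composite, were in 2 of the 24, those of Aif1 and Ctss, and in 3.44% of all. The promoters below show neighbouring C1q genes that lay lower together, the gene with the lowest log2 ratio (Cd68), a macrophage gene close to equality (Mrc1) and a dendritic cell gene without a match (Clec9a). Capitals mark matches to any of the letters on either strand, and each sequence runs 5′ to 3′ along its gene.
C1qb, minus strand, chr4:136886151-136886450: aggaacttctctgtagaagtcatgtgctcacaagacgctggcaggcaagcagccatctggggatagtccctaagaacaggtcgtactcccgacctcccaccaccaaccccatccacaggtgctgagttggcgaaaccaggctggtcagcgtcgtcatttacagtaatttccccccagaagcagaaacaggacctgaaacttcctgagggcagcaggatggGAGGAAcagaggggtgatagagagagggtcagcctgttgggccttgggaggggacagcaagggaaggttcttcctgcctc
C1qc, minus strand, chr4:136892865-136893164: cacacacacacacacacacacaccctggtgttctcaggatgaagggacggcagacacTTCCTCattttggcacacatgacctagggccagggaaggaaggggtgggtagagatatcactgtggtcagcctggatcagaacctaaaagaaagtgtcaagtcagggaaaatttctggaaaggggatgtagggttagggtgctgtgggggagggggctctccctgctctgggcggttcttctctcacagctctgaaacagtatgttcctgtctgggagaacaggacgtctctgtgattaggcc
Cd68, minus strand, chr11:69666121-69666420: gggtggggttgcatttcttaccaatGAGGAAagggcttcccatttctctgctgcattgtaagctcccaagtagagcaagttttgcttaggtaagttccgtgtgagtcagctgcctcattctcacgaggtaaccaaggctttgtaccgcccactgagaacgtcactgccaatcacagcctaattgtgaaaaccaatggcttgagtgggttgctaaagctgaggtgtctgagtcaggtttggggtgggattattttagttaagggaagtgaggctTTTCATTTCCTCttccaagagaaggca
Mrc1, plus strand, chr2:14229164-14229463: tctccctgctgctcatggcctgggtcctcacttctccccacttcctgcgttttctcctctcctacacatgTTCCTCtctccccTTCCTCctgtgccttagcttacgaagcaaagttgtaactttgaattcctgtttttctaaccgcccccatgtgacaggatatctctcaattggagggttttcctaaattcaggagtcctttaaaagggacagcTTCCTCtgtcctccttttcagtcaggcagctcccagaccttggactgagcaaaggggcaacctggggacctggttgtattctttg
Clec9a, plus strand, chr6:129408612-129408911: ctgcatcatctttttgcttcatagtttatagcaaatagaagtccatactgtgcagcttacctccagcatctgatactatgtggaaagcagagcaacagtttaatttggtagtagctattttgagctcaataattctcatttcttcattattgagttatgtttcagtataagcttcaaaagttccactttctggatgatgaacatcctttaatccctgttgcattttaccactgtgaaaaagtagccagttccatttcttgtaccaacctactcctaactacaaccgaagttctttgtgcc
C1qb and C1qc each hold 1 match of GAGGAA, Cd68 holds 2 and Mrc1 holds 3, and Clec9a holds none. A match is only a run of letters and shows no binding.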

How the data were processed

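RNA of small intestine was taken up in TRIzol and copied to cDNA by SMART-Seq II, per the labels' protocols. The deposited table holds FPKM values made by the authors, with 1 column per library. Per the submitters' processing notes, Bowtie2 2.2.3, HTSeq 0.6.0 and mm10 were used, with no role given. The sources used here give no strand setting, filter or pooling of mice.

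Columns were matched to libraries by title. Genes of at least 1 FPKM in either library (13479) were compared by log2((KO FPKM + 1) / (WT FPKM + 1)). Folds of single genes are plain FPKM ratios, and counts past a fold use the log2 ratio unless a plain ratio is named. Of the identifiers, 27222 matched GENCODE M21 (GRCm38, the assembly of mm10). FPKM times exon length stepped in whole reads, within 0.01, for 90.6% of values in the WT library and 90.7% in the KO library. For 28 members reads followed from exon length. For Csf1r, Adgre1 and Cd14 they are the whole-number pair with the observed ratio nearest to that length. Intervals are exact Clopper-Pearson intervals at 95% (scipy 1.17.1), which cover counting error only. PCR copies were not marked by molecular identifiers, so reads are not independent molecules. The read recovery and intervals were also run on simulated counts made with the same exon lengths. That run held only genes whose reads follow from exon length, without PCR copies. It therefore says nothing on the reads of Csf1r, Adgre1 and Cd14 or on PCR copies.

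The members and lists were chosen with earlier results of these data known. All members, Spib and Lyz1 are named. List genes were to be named where at least 1.5-fold apart or most abundant; not all of these are named, and other list genes were chosen after their values were seen. Of the list genes, 2 were not analysed here. Some list genes are not reported here and were left out of their lists. Alternatives were pseudocounts of 0.1 and 5, other filters, other scalings and a list without 7 members of other cells or close copies.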

Additional observations from a re-analysis of the deposited data

How the results depend on the processing

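With 1 library per genotype no library could be left out. No paired analysis was possible because each genotype has 1 library and the result comes from no test. The side of 0 of a log2 ratio depends only on which library is higher, so no pseudocount can change it. All 31 members also kept that side after centring on all compared genes and after rescaling to TPM. The count of members at least 1.5-fold lower, 4, was 7 and 0 with pseudocounts of 0.1 and 5, 1 after centring on all compared genes and 8 after rescaling to TPM, which also enlarges all values relative to the pseudocount. By the plain ratio, an alternative chosen after seeing the data, it was 8. The dendritic cell median of -0.34 was -0.50 with a pseudocount of 0.1 and -0.53 by the plain ratio, over the same genes. A smaller added value shrinks the ratios of low genes less. The difference of dendritic and macrophage medians, -0.04, turned to 0.074 with a pseudocount of 5 and to 0.094 with a minimum of 5 FPKM. In a scaling chosen after seeing the data, ratios were centred on the pan-leukocyte genes, which moved the median of all genes to 0.55. Then the medians turned to 0.31 for macrophage, 0.26 for dendritic cell and 0.37 for shared genes. In this scaling 0 members were 1.5-fold lower, where 1.88% of all compared genes were. Lyz2 and Aif1 turned to 0.00499 and 0.00341, and 29 of 31 members lay above 0. Most genes did so too, as only 5.45% of all compared genes had an uncentred log2 ratio at or below -0.60, the pan-leukocyte median. Depth limits Xcr1, Cd209a, Batf3 and Lst1, whose counting intervals include 1.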
